A study of Mus musculus with 6 samples.

Results

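Laminins are the cross-shaped glycoproteins from which the sheet of a basement membrane is built. Each laminin is a trimer of an alpha, a beta and a gamma chain, and the alpha chain carries the domains that integrins and dystroglycan bind, so the alpha chain that a cell makes largely sets which receptors can hold it to the membrane. In the uterus such membranes lie under the luminal and glandular epithelium, around smooth muscle cells and around vessels. The chains described here were chosen by name: 9 laminin genes, namely the 5 alpha chain genes Lama1, Lama2, Lama3, Lama4 and Lama5, the 3 beta chain genes Lamb1, Lamb2 and Lamb3, and the gamma chain gene Lamc1. They are 9 of the 24077 genes of the single-cell count table and 9 of the 30828 genes of the spatial count tables, and all 9 had counts in both assays.

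CD-1 female mice received corn oil alone (CO) or diethylstilbestrol (DES), a synthetic estrogen, at 1 mg/kg/day on days 1 to 5 after birth, and uteri were taken at 12 months of age. The single-cell assay had 1 library per treatment, made from the pooled uteri of 2 CO and 4 DES mice, and the spatial assay had 2 sections per treatment, called A and B, each from 1 mouse. According to the study CO mice were taken in estrus and DES mice were in persistent estrus, DES sections were picked to contain adenocarcinoma, CO B had a tissue fold, and clusters were harder to identify in DES B. In the sections an effect of DES on a chain therefore cannot be told apart from that of tumor content.

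The CO library held 32387 cells and the DES library 16312 cells, with medians of 6779 and 10153.5 unique molecular identifiers (UMIs, the count of distinct captured RNA molecules) per cell, and 180 cell barcodes occurred in both. Sections had 1357 to 1834 spots and 9117099 to 12506177 UMIs. Each spot covers several cells, so that for any chain fewer cells of a type and less RNA per cell cannot be told apart. Levels are given as counts per 1000000 UMIs (CPM) of the cells or spots summed. They are read from the 3' end of the RNA and are not scaled to length, so levels of a chain were compared across groups and not with the level of another chain, and shares of a chain class are given to be read across groups alone. Cell types and epithelial clusters are those of the deposited annotation, which gave no type to 20134 CO and 6611 DES cells. DES cells annotated as stromal and endothelial numbered 1 and 5, and no level is given for them.

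Promoters are shown for 4 chains that differed between epithelial groups and had an entry in the table: Lama5 and Lamb1, which were lower in DES than in CO epithelial cells, Lamb2, which was higher, and Lamb3, which was high in the basal cells of the DES library. The windows are from RefSeq on GRCm38.p6, run from 250 bases before to 50 bases after an annotated transcription start on the strand of the gene, and carry in capitals every match to the GC box GGGCGG, or to its reverse complement CCGCCC, the site that Sp1 family factors bind. Lama5 lies on the minus strand at chr2:180225810-180226109, Lamb1 on the plus strand at chr12:31265043-31265342, Lamb2 on the plus strand at chr9:108479612-108479911 and Lamb3 on the plus strand at chr1:193301744-193302043.
Lama5: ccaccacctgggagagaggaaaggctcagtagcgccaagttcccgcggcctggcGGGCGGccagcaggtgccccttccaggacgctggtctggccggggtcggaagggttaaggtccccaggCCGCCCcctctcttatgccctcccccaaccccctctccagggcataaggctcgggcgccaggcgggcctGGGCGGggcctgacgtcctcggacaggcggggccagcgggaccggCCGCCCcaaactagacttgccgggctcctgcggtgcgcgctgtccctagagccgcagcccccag
Lamb1: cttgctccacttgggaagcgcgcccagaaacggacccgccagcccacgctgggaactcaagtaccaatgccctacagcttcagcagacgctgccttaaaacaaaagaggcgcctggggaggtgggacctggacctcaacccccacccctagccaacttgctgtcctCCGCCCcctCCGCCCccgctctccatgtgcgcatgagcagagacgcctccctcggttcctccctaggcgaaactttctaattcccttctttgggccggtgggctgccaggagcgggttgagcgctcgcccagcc
Lamb2: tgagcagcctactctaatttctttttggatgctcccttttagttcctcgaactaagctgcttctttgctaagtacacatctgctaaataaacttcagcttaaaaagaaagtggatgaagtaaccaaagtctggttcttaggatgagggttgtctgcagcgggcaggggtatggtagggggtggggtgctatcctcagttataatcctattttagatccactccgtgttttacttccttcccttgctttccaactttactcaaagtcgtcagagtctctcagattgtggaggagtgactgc
Lamb3: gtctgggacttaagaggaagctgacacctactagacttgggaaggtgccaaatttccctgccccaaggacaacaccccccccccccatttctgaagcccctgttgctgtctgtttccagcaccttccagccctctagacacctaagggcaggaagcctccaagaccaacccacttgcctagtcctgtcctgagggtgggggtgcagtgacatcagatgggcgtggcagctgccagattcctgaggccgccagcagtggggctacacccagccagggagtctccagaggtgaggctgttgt
The Lama5 window was 72.7% G or C with 24 CpG dinucleotides and 4 GC box matches, and the Lamb1 window was 63.7% G or C with 18 CpG and 2 matches. The Lamb2 window was 44.0% G or C with 4 CpG, the Lamb3 window was 59.3% G or C with 2 CpG, and neither held a GC box match. Over all 32851 windows the median was 52.7% G or C with 7 CpG, and 35.7% held a GC box match. The AP-1 site TGANTCA, the TATA box TATAAA and the palindromic estrogen response element, searched on both strands, occurred in 7.81%, 13.6% and 0.0700% of all windows and in no window of a member. A second Lamb3 window at chr1:193301993-193302292 and the Lama2 window at chr10:27616893-27617192 held 0 and 1 GC box matches. Both Lamb3 windows lie inside the gene as GENCODE M21 annotates it on GRCm38, on chromosome 1 from 193207699 to 193343878, which starts farther upstream. The Lama2 window likewise lies inside its gene, on the minus strand of chromosome 10 from 26980036 to 27619758. Lama1, Lama3, Lama4 and Lamc1 had no entry.

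In the control uterus the alpha chains differed in the cells that held them, although Lama3 and Lama5 shared their leading CO cell types, epithelial and endothelial cells. Lama2, the alpha chain of laminins around muscle and mesenchymal cells, was at 89.8 CPM in CO stromal cells (exact Poisson 95% interval 84.5 to 95.4, 1326 cells), 58.8 in the cells annotated Ctla2a and 45.4 in pericytes, and the next group, myocytes, was at 2.74. The intervals of the Ctla2a cells and the pericytes overlapped, while that of stromal cells lay above both. These intervals cover counting error only, since each treatment had 1 library. In CO epithelial cells Lama2 was at 0.266 CPM, from 21 UMIs in 2583 cells.

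Lama4, the alpha chain of vascular and muscle basement membranes, was highest in endothelial cells, at 131 CPM (118 to 146, 341 cells). Among groups of at least 50 cells, DES mesothelial cells at 74.9, pericytes at 70.9, CO mesothelial cells at 58.0 and myocytes at 48.3 followed, each overlapping the next. CO epithelial cells had 1.29 CPM. Lama5, the alpha chain of most adult epithelial and endothelial membranes, was at 73.0 CPM in CO epithelial cells (71.2 to 74.9) and 49.8 in endothelial cells (41.7 to 59.1), and no other CO cell type exceeded the 31.0 of myocytes.

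Lama3, which like Lamb3 encodes a chain of the laminin that hemidesmosomes of epithelia hold on to, was at 34.7 CPM in CO epithelial cells (33.4 to 36.0), 26.2 in endothelial cells (20.4 to 33.2) and 10.0 in mesothelial cells. Stromal cells had 2.22. Lama1, the alpha chain best known from embryonic basement membranes, was scarce throughout: 0.254 CPM in CO epithelial cells from 20 UMIs, 0.682 in stromal cells from 8 UMIs, and 0 in 341 endothelial cells, where the upper bound of the interval was 1.40 CPM.

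Lamb1, Lamb2 and Lamc1 had counts in most cell types, while Lamb3 was lower in CO stromal, endothelial (2.28 CPM) and mesothelial cells (1.68) than in epithelial cells. Lamb1 was at 153 CPM in pericytes (115 to 199.9), 147 in stromal cells (139.9 to 154), 110.4 in Ctla2a cells and 73.0 in endothelial cells, and CO epithelial cells had 30.1. Lamb2 was at 60.5 in endothelial cells, 51.1 in pericytes and 43.2 in stromal cells, with overlapping neighbours, and at 12.7 in CO epithelial cells. Lamc1, the gamma chain of most laminins, was at 111 CPM in endothelial cells (98.3 to 124), 99.4 in stromal cells (93.8 to 105) and 16.8 in CO epithelial cells. Lamb3 was at 21.2 CPM in CO epithelial cells and 1.45 in stromal cells, and its level in lymphocytes is taken up in the closing section.

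**Figure D1:**
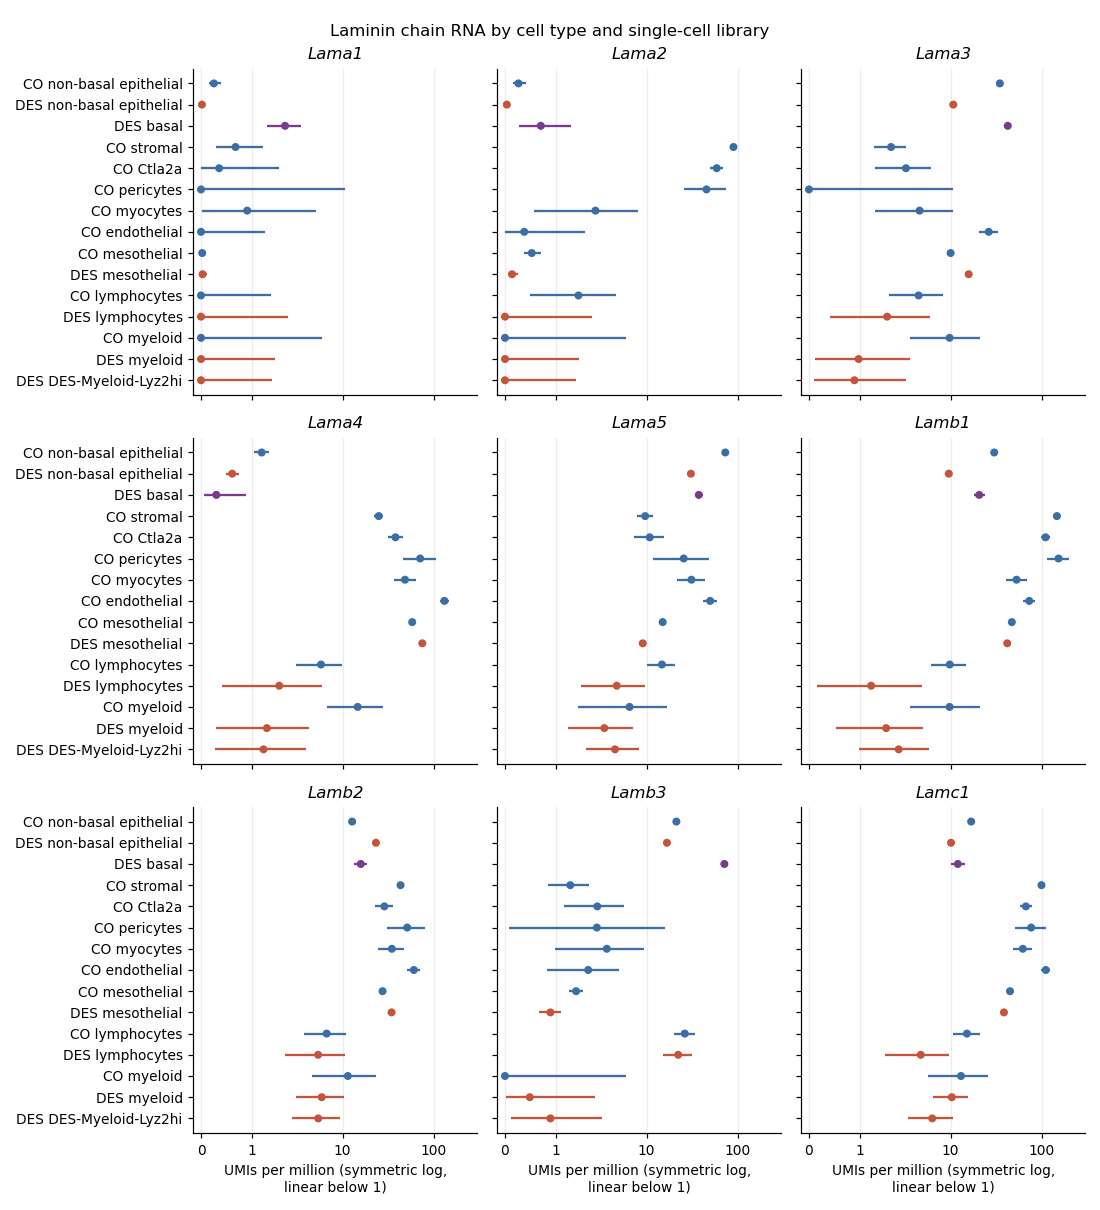
Level of each of the 9 laminin chains (counts per 1000000 UMIs, logarithmic above a linear stretch near 0) by annotated cell type, for the CO and the DES single-cell library. Points are summed levels and bars are exact Poisson 95% intervals, which cover counting error only. Lama2 stands at 89.8 in CO stromal cells, Lama4 at 131 in CO endothelial cells and Lama5 at 73.0 in CO epithelial cells.

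Across the 15 groups of cell type and library with at least 50 cells, Lamb1, Lamb2 and Lamc1 followed each other: Pearson's r of log2(CPM + 1) was 0.934 for Lamb1 and Lamc1, 0.908 for Lamb1 and Lamb2, 0.903 for Lamb2 and Lamc1, and 0.870 for Lama4 and Lamc1. Lamb3 did not follow them, with r of -0.156 with Lamb1, -0.221 with Lamb2 and -0.352 with Lamc1, and its r with Lama3 was 0.384. Groups of a library share its depth and its free RNA, so these coefficients are descriptions. Among 10228 other genes the nearest in pattern were Pth1r, Pdgfrl and Cadm3 for Lama2 (r 0.983, 0.983 and 0.982), Hoxd3os1, Hoxd9 and Filip1 for Lama4 (0.970, 0.962 and 0.958), and Elovl7, Il20rb and Ces2g for Lama3 (0.922, 0.909 and 0.881). For Lama5 they were Samd12, Ccser2 and Metap2 (0.937, 0.931 and 0.930), for Lamb1 RP23-175I24.3 and Pxdn were among the nearest 3 (0.956 and 0.938), and for Lamc1 Fermt2, Jam3 and Pde10a (0.95, 0.947 and 0.947). For Lamb2 they were Spaca6, Fundc2 and Mageh1 (0.956, 0.954 and 0.954), for Lamb3 Rpl27, Ikzf2 and Pkp3 (0.932, 0.913 and 0.900), and for Lama1 Moxd1, Foxa1 and Slc1a4 (0.856, 0.826 and 0.817).

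The epithelial cells of the DES library that were not basal had lower levels of most chains than CO epithelial cells. Lama3 was at 10.7 CPM against 34.7, a ratio of 0.308 (95% interval 0.290 to 0.327). Lamb1 was at 9.55 against 30.1, a ratio of 0.317 (0.297 to 0.338), and Lama5 was at 30.6 against 73.0, a ratio of 0.420 (0.404 to 0.436). Lamc1 at 10.1 against 16.8 and Lamb3 at 16.7 against 21.2 were lower by less, with ratios of 0.602 (0.560 to 0.647) and 0.785 (0.739 to 0.835).

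Lamb2 went the other way, from 12.7 CPM in CO to 23.2 in DES cells, a ratio of 1.82 (1.70 to 1.95). Of the 6 members above 5 CPM in either group, 3 were at least 2 times lower in DES cells, where 8.16% of the 10119 genes above that level were, and 0 were at least 2 times higher, where 9.0% of genes were. The median log2 ratio was -0.99 over these members and 0.09 over all such genes. With 1 library per treatment there is no test, and the groups held 2583 CO and 4608 DES cells. Lama1, Lama2 and Lama4 stayed under the minimum level, at 0.0183, 0.0366 and 0.616 CPM in DES cells. The 4608 cells are those of the deposited DES clusters, and a further 168 DES epithelial cells lay outside both these clusters and the basal cells described next.

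The makeup of the beta chains shifted accordingly. Each share is to be read between the libraries, since the counts are not scaled to length. Of the UMIs of the 3 beta chain genes, Lamb1 took 47.0% in CO and 19.3% in DES epithelial cells, Lamb2 took 19.9% and 46.9%, and Lamb3 took 33.1% and 33.8%. Of the alpha chain UMIs Lama3 took 31.7% and 25.5% and Lama5 took 66.7% and 72.9%.

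**Figure D2:**
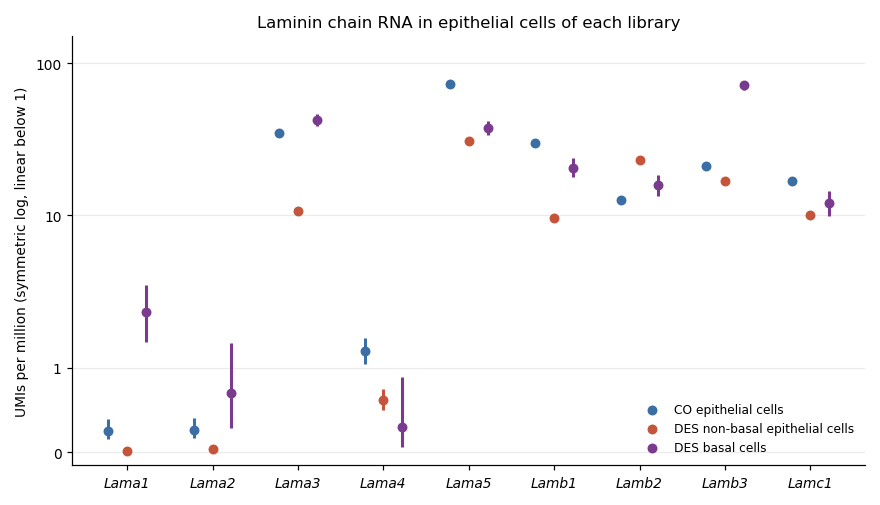
Level of the laminin chains (counts per 1000000 UMIs, logarithmic above a linear stretch near 0) in CO epithelial cells, DES epithelial cells other than basal, and DES basal cells. Bars are exact Poisson 95% intervals, which cover counting error only. Lama3 and Lamb3 are highest in basal cells, at 42.4 and 71.3, and Lamb2 is higher in DES than in CO cells, at 23.2 against 12.7.

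Chains also differed among epithelial clusters of 1 library. CO cluster 13, with 62 cells, had the lowest Lama3 (1.12 CPM, against a median of 34.2 over 15 clusters), Lamb1 (3.37, median 29.7), Lama5 (33.7), Lamb3 (5.61) and Lamc1 (7.86), but the highest Lamb2, at 55.0 CPM against a median of 13.8. DES cluster 14, with 67 cells, was likewise lowest of the 16 DES clusters in Lama5 (14.9 CPM), Lamb1 (2.06) and Lamc1 (4.95) and highest in Lamb2 (34.7, median 23.8). CO cluster 7 had the highest Lama5 and Lamb1, at 110.2 and 42.3 CPM, and CO cluster 3 the highest Lama3 and Lamc1, at 53.8 and 31.1. Among DES clusters Lama3 was highest in cluster 15 at 19.5 CPM and Lamb3 in cluster 13 at 32.8. These levels are descriptions, because the cells were clustered on these counts.

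Lama1 UMIs in CO epithelium came mostly from a pair of clusters. Cluster 3 had 11 UMIs in 11 of 204 cells (2.25 CPM, 1.12 to 4.03) and cluster 14 had 5 UMIs in 3 of 28 cells (5.51 CPM, 1.79 to 12.9). The remaining 2351 cells had 4 UMIs, or 0.0548 CPM.

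Basal cells, a cell type of stratified epithelia, were taken as epithelial cells in which the keratin gene Krt14 and the transcription factor gene Trp63 each had more than 1 UMI. This rule was met by 483 of 5255 DES and 0 of 2583 CO epithelial cells, and the 483 had more of the chains of hemidesmosome laminin than other DES epithelial cells. Lamb3 was at 71.3 CPM in basal cells against 16.7, a ratio of 4.28 (3.93 to 4.65), and Lama3 at 42.4 against 10.7, a ratio of 3.96 (3.55 to 4.41). Lamb1 was at 20.6 against 9.55, a ratio of 2.16 (1.86 to 2.50). Lama5 and Lamc1 were close to other DES cells, with ratios of 1.2 (1.10 to 1.36) and 1.19 (0.980 to 1.43), and Lamb2 was lower, at 15.8 against 23.2 CPM, a ratio of 0.681 (0.576 to 0.799).

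Of the 6 members above 5 CPM, 3 were at least 2 times higher in basal cells, where 10.2% of 10359 genes were, and 0 were at least 2 times lower, where 8.61% were. Thinned to 3000 UMIs per cell, 14.7% of 483 basal cells had a Lama3 UMI (exact Clopper-Pearson 11.7% to 18.2%) and 3.16% of 4559 other DES epithelial cells did, against 0.691% of CO stromal cells, a type with little of this chain. Without thinning the shares were 51.6%, 25.9% and 1.96%, at median depths of 16093, 24663.5 and 8726.5 UMIs. Lamb3 was seen in 21.3% of thinned basal cells and 6.12% of other cells, and in 0.307% of stromal cells (70.4%, 39.3% and 1.28% without thinning).

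Lama1 had 23 UMIs in 18 of the 483 basal cells, 2.33 CPM, and 3 UMIs in 4608 other DES epithelial cells, 0.0183 CPM, a ratio of 127 with a counting interval of 38.4 to 662. The ratio rests on which cells are compared. The 168 epithelial cells in neither group had 10 Lama1 UMIs (3.90 CPM, 1.87 to 7.17), an interval that holds the basal level, and against all 4772 DES epithelial cells that failed the basal rule, an alternative chosen after seeing the data, the ratio was 29.8 (14.5 to 63.9). Integrated epithelial cluster 8 had 10 Lama1 UMIs in its 88 cells that failed the rule (7.53 CPM, 3.61 to 13.9). The ratios of Lamb3 and Lama3 were 4.12 and 3.83 against the 4772 cells. Of the basal UMIs of Lama1, 21 lay in the 263 basal cells of integrated epithelial cluster 8 (3.87 CPM, 2.40 to 5.92) and 2 in the 209 of cluster 11 (0.559 CPM, 0.0677 to 2.02). Lamb3 and Lama3 were instead a little higher in cluster 11, at 88.1 and 52.6 CPM, than in cluster 8, at 68.4 and 39.7.

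The partners of laminin were counted from lists fixed by name. Over all genes above 5 CPM, 9.0% were at least 2 times higher and 8.16% lower in DES than in CO epithelial cells, and 10.2% were higher in basal than in other DES epithelial cells. Of 13 other basement membrane genes, 7 passed 5 CPM in the comparison of DES with CO epithelial cells, of which Col4a4 (ratio 7.63) and Ntn4 (3.03) were at least 2 times higher in DES cells and Col4a1 (0.0408), Col18a1 (0.320) and Col4a5 (0.480) lower. Of 11 laminin receptor genes 10 passed, and the integrin chains Itga6 (0.345), Itgb1 (0.361), Itga2 (0.469) and Itga3 (0.469) were lower in DES cells. In basal against other DES cells, 8 of these 10 receptor genes were higher, among them Itga2 (9.13), Sdc1 (8.11), Bcam (7.92), which binds Lama5 laminins, and Itga3 (5.77). All 6 hemidesmosome genes were higher in basal cells. Of these, Col17a1 (ratio 202, 177 to 230.1) and Col7a1 (114, 91.4 to 143) were above 5 CPM in basal cells alone, at 1.55 and 0.567 CPM in the other cells, so the minimum level kept them through the group in which they were high. Itgb4, at 174 against 35.0 CPM, had a ratio of 4.97, and 5 of 7 basement membrane genes were higher, led by Col4a6 (45.1) and Col18a1 (21.2), which also passed the minimum through basal cells alone (0.415 and 1.99 CPM in other cells).

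Mesothelial cells, the outer lining of the uterus, gave a second comparison of the libraries and had smaller differences. Lama3 was at 10.0 CPM in CO and 15.8 in DES cells, a ratio of 1.57 (1.44 to 1.73), and Lama4 was at 58.0 and 74.9, a ratio of 1.29 (1.24 to 1.35). Lama5 was at 15 and 9.06, a ratio of 0.602 (0.545 to 0.665). Lamb2 (1.25), Lamb1 (0.890) and Lamc1 (0.857) lay closer to 1. None of the 6 members above 5 CPM was 2 times higher or lower, where 2.32% and 2.79% of 10570 genes were. The DES to CO ratio of Lama3 was thus below 1 in epithelial and above 1 in mesothelial cells. Among the basement membrane genes Ntn4 (2.0) was higher and Col4a1 (0.175) and Col4a2 (0.287) were lower in DES cells.

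In the tissue sections Lama1 stood out between the treatments. Over whole sections it was at 1.68 CPM in CO A and 1.63 in CO B, from 21 and 18 UMIs, and at 26.0 in DES A and 19.0 in DES B, from 237 and 188 UMIs. Both DES sections lay above both CO sections, and the log2 fold change of DES against CO was 3.54 (SE 0.28, edgeR quasi-likelihood test, adjusted p = 0.0190). Here and in the fits that follow the p-values rest on 2 sections per treatment, and the spread of each gene is estimated partly from that of all genes. Contrasts within sections have section as a block, so level differences between sections are taken out. With a section left out, its treatment keeps a lone section, and the other treatment alone gives the spread between sections. Lamb3 was also higher in DES, at 117 and 106 CPM against 51.7 and 48.9 in CO (log2 0.94, SE 0.16, adjusted p = 0.0445).

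Lamb1, Lamc1 and Lama2 were lower in DES sections. Lamb1 was at 142 and 143 CPM in CO A and CO B and at 52.8 and 47.7 in DES A and DES B (log2 -1.71, SE 0.16, adjusted p = 0.0210). Lamc1 was at 57.8 and 73.6 against 32.7 and 27.8 (log2 -1.33, SE 0.19, adjusted p = 0.0324), and Lama2 at 34.3 and 70.2 against 13.9 and 13.5 (log2 -2.13, SE 0.37, adjusted p = 0.0457). For each of the 3 chains the treatments did not overlap. The same held for Lama3, Lama4 and Lama5, which did not pass the threshold. How often sections separate in this way over all genes was not counted.

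The other 4 chains did not pass the threshold. Lama4 was at 69.1 and 180.0 CPM in CO and 36.4 and 27.6 in DES sections, where the CO sections differed from each other more than CO A from DES A (log2 -2.16, SE 0.48, adjusted p = 0.0744). Lama5 was at 235 and 240.5 against 207 and 192 CPM (adjusted p = 0.162), and Lama3 at 42.2 and 37.7 against 60.9 and 61.4 (adjusted p = 0.228). Lamb2 was at 125 in CO A and 286 in CO B, with both DES sections, at 187 and 182, in between (adjusted p = 0.639). In all, 2 of 9 members were higher, where 2.67% of 14098 genes tested were, and 3 were lower, where 2.63% were.

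Leaving out either DES section ended all 5 calls, with adjusted p of 0.0684 or more, while the 5 log2 fold changes kept their signs. Smooth muscle markers were at 9030 and 9845 CPM in CO and 1827 and 2017 in DES sections, stromal markers at 1318 and 991 against 651 and 412, and basal markers at 3.36 and 159.7 against 9526 and 5644. The part of this makeup in the whole-section differences was not tested, so chains were also read in regions of the sections.

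**Figure D3:**
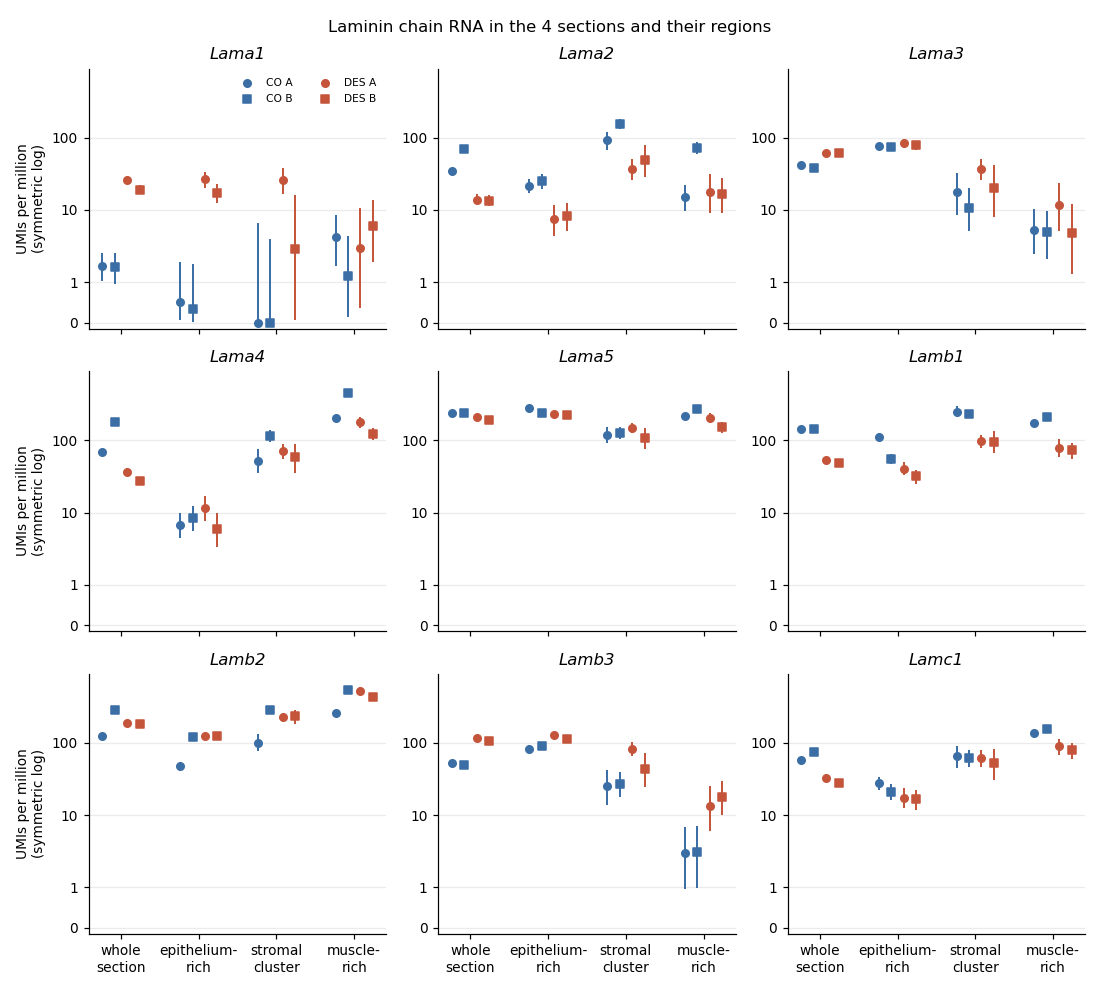
Level of each laminin chain (counts per 1000000 UMIs, logarithmic above a linear stretch near 0) in the whole section, the epithelium-rich spots, the stromal spot cluster and the muscle-rich spots of CO A, CO B, DES A and DES B. Points are sections and bars are exact Poisson 95% intervals, which cover counting error only. Lama1 stands at 26.5 and 17.3 in epithelium-rich spots of DES sections and at 0.523 and 0.327 in those of CO sections.

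Epithelium-rich spots were the 15% of spots of a section with the highest epithelial minus smooth muscle marker score, and muscle-rich spots the 15% with the lowest. In epithelium-rich spots Lama1 was at 0.523 and 0.327 CPM in CO A and CO B, from 2 UMIs and 1 UMI, and at 26.5 and 17.3 in DES A and DES B, from 64 and 44 UMIs (log2 5.24, SE 0.53, adjusted p = 0.0137). Lama2 was at 21.4 and 24.8 against 7.44 and 8.26 CPM (log2 -1.84, SE 0.29, adjusted p = 0.0320). These were the 1 member higher and the 1 member lower of 9 tested, where 3.59% and 1.97% of 11536 genes were. The Lama1 call ended without CO A or DES A, and the Lama2 call ended without any 1 of the sections. With a section left out, the log2 fold changes stayed between 4.95 and 5.61 for Lama1 and between -1.96 and -1.73 for Lama2. Stromal markers in epithelium-rich spots were at 668 and 353 CPM in CO A and CO B and 284 and 196 in DES A and DES B. Single non-basal epithelial cells had Lama2 at 0.266 CPM in CO and 0.0366 in DES. The part of stroma in the Lama2 difference was not tested.

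Lamb1 was at 112 and 54.9 CPM in these spots of CO sections and 40.5 and 31.5 in those of DES sections (log2 -1.51, SE 0.39, adjusted p = 0.0845), a direction that single epithelial cells shared. Lama3 was at 76.0 and 74.8 in CO and 83.1 and 77.9 in DES spots (log2 -0.19, SE 0.19, adjusted p = 0.575). Its fold change is negative although both DES levels lay above both CO levels. The fit scales the sums of the sections by the TMM method, and the levels are plain CPM. The DES to CO ratio of Lama3 in single cells, 0.308, thus stood beside levels in spots that were about the same in both treatments. Spots also hold basal cells, whose part in this was not tested: basal markers were at 6.01 and 79.1 CPM in CO and 8786 and 5261 in DES epithelium-rich spots. Lamb3 was at 82.8 and 90.8 against 127 and 112 (adjusted p = 0.630) and Lama5 at 275 and 241 against 230.3 and 224 (adjusted p = 0.224). Lamc1 at 27.4 and 20.9 against 17.4 and 16.5 had an adjusted p of 0.151. Lamb2 was at 47.0 in CO A, 119 in CO B, and 125 and 124 in DES (adjusted p = 0.706), and Lama4 lay between 5.90 and 11.6 CPM in the 4 sections.

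Ranked by basal markers, the spots of DES sections showed where Lama1 lay. In 4 equal groups of spots from the lowest to the highest basal score, Lama1 was at 6.09, 6.56, 23.8 and 48.2 CPM in DES A and at 2.97, 7.74, 17.2 and 38.8 in DES B. Lamb3 rose from 36.6 to 154 and from 25.2 to 152 over the same groups, and Lama3 ended at 78.4 and 87.6. Lama5 was at 199 in the lowest and 217 in the highest group of DES A, with overlapping intervals, and at 159 (139 to 182) and 205 (189 to 222) in those of DES B. Lamc1 went down, from 57.5 to 20.7 and from 54.9 to 21.3, as did Lamb2, from 347 to 151 and from 299.7 to 151. No test was run on these groups, since epithelial markers rise along the same ranking. In 4 equal groups ranked by epithelial score instead, Lama1 was at 9.51, 20.8, 31.1 and 27.7 CPM in DES A. In DES B the levels of Lama1 by that ranking were 2.97, 23.5, 21.2 and 19.5 CPM, and the 2 rankings were not compared by a test.

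**Figure D4:**
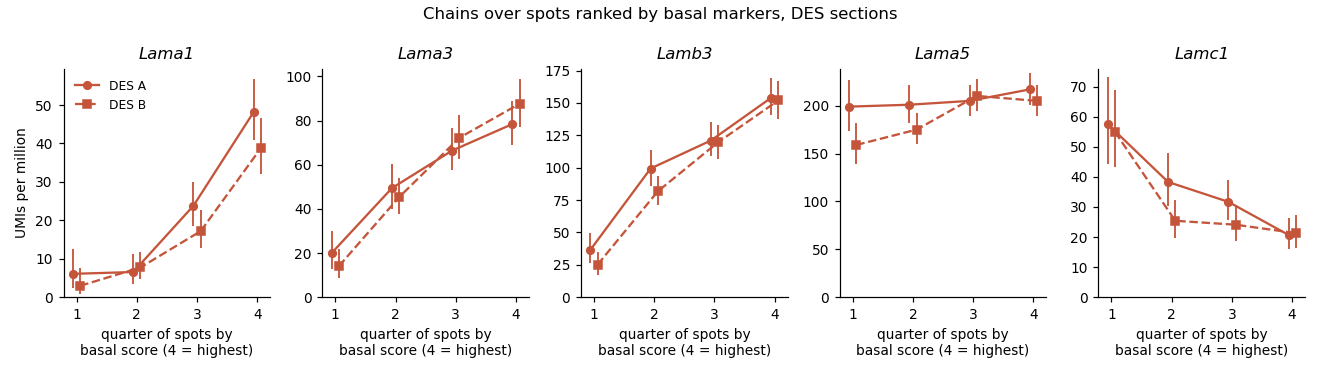
Level of laminin chains (counts per 1000000 UMIs, linear axes from 0) in 4 equal groups of spots ranked by basal marker score, from lowest to highest, in DES A and DES B. Bars are exact Poisson 95% intervals, which cover counting error only. Lama1 climbs to 48.2 and 38.8 in the highest group, and Lamc1 falls to 20.7 and 21.3.

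Clusters of at least 20 spots were ranked, which left out cluster 10 of CO B, whose 17 spots had basal markers at 6025 CPM. By spot cluster, Lama1 was highest in clusters 1 and 5 of DES A (43.5 and 43.1 CPM, the first from 151 UMIs) and in clusters 7 and 1 of DES B (37.1 and 31.1). Over the clusters of a section its level and the basal marker level had an r of 0.945 in DES A (8 clusters) and 0.509 in DES B (10 clusters), and with the epithelial marker level 0.739 and 0.436. Lama4 was highest in cluster 6 of CO A (239 CPM), 5 of CO B (455), 7 of DES A (205) and 10 of DES B (137), clusters in which smooth muscle, endothelial or lymphatic endothelial markers led. Lama3 was highest in the epithelial clusters 1 of CO A (76.9) and 2 of CO B (74.3), above the next cluster in both. In DES sections it was highest in cluster 8 of DES A (98.6), where basal markers were at 8989 and myeloid markers at 7944 CPM, and in cluster 6 of DES B (138, from 9 UMIs), where basal markers were at 4392, within the range of the other clusters, and pericyte markers were the most raised over their median, each overlapping the next cluster. Over clusters the r of Lama3 was 0.645 in DES A and 0.816 in DES B with epithelial and 0.670 and 0.813 with basal markers.

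In muscle-rich spots Lamb1 was at 170.4 and 209 CPM in CO and 78.4 and 72.2 in DES sections (log2 -1.52, SE 0.26, adjusted p = 0.0263). It was the only 1 of 7 members tested to be lower, where 0.607% of 9725 genes were, and 0 were higher, where 1.02% were. Leaving out DES A or DES B ended this call. Lamb3 was at 2.98 and 3.06 in CO and 13.3 and 17.8 in DES spots (adjusted p = 0.0898), where basal markers were at 1.79 and 6.12 against 1082 and 1001 CPM. Lama4 was at 201 and 446 against 176 and 123 (adjusted p = 0.144), Lamc1 at 138 and 154 against 88.7 and 78.2 (adjusted p = 0.0924), and Lama5 at 213 and 267 against 203 and 152 (adjusted p = 0.313). Lamb2 was at 254 and 536 against 523 and 431 (adjusted p = 0.956) and Lama2 at 14.9 and 71.6 against 17.7 and 16.6 (adjusted p = 0.354). Lama1 and Lama3 had too few counts to be tested. Smooth muscle markers in these spots were at 32524 and 35763 CPM in CO and 16568 and 13465 in DES.

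Stromal spots were those of the clusters that the study called stroma, with 101 and 188 spots in CO A and CO B and 211 and 132 in DES A and DES B. No member passed the threshold between treatments there: 0 of 8 tested were higher and 0 lower by edgeR, where 0.796% and 0.673% of 8914 genes were. DESeq2 called 0 as well, where it called 193 of 8914 genes. Without the count filter 3 members were called, where 714 of 16195 genes were. With a section left out, the log2 fold changes of Lama2 (-2.01 to -1.19) and Lamb1 (-1.44 to -1.28) stayed negative. Lamb1 was at 247 and 229.8 CPM in CO and 96.5 and 95.3 in DES (log2 -1.36, SE 0.29, adjusted p = 0.0682). Lama2 was at 91.3 and 155 against 36.4 and 49.1 (log2 -1.63, SE 0.41, adjusted p = 0.0965), and Lamb3 at 25.1 and 27.1 against 81.7 and 43.3 (log2 1.24, SE 0.38, adjusted p = 0.185). In all 3 the treatments did not overlap. Nor did they for Lama3, at 17.9 and 10.8 CPM in CO and 36.4 and 20.2 in DES (adjusted p = 0.416). How often this held over all genes was not counted. Lamc1 at 64.5 and 60.7 against 61.1 and 52.0 CPM, and Lama5 at 118 and 126 against 149 and 107, had adjusted p of 0.880 and 0.985.

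Lama1 was not tested in stromal spots, where 0 UMIs were counted in either CO section, 26 in DES A and 1 in DES B. Over both DES sections it was at 19.8 CPM, at least 9.79-fold higher than the 2.03 CPM that 3 counts over both CO sections would give, and nearly all of it came from DES A. Basal markers in the stromal cluster were at 0 and 90.0 CPM in CO and 7058 and 1998 in DES, and their part in Lama1 and Lamb3 was not tested. Pericyte markers there were at 669.7 and 765 CPM in CO and 260.0 and 378 in DES. Endothelial markers were at 213 and 296 against 76.8 and 182, and the part of these cells in Lamb1 and Lama2 was not tested.

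Within the sections, Lama2 and Lamb1 were higher in stromal than in other spots in both treatments. Among the clusters ranked, Lamb1 was highest in the stromal cluster in CO A alone, at 247 CPM. It was highest in cluster 3 of CO B (249, stromal 229.8), 7 of DES A (140.1, stromal 96.5) and 9 of DES B (103, stromal 95.3). The intervals of these clusters overlapped those of the stromal clusters. Against all other spots, stromal spots of CO sections had more Lama2 (log2 1.35, SE 0.21, adjusted p = 1.65e-05) and Lamb1 (log2 0.76, SE 0.19, adjusted p = 0.00493), and less Lama3 (log2 -1.65), Lama5 (-1.06), Lamb3 (-1.03) and Lama4 (-0.65). That made 2 of 9 higher and 4 lower, where 6.47% and 5.50% of 13542 genes were. In DES sections Lama2 (log2 1.91), Lama4 (1.21), Lamb1 (1.12) and Lamc1 (1.10) were higher and Lama3 (-0.97), Lamb3 (-0.74) and Lama5 (-0.59, adjusted p = 0.0498) lower, 4 and 3 of 9, where 7.16% and 5.66% of genes were. These p-values are likely too small, because the spots were clustered on the counts tested here. With DESeq2 the calls of Lama4, Lamb1 and Lamb3 ended in CO and those of Lama3, Lama5 and Lamb3 in DES. Of the 6 CO calls, those of Lama2, Lama5 and Lama3 were left without CO A and those of Lama2 and Lama5 without CO B. Of the 7 DES calls, that of Lama5 ended without any 1 of the sections (adjusted p 0.0644 to 0.338), that of Lamc1 also without DES A (0.110), and those of Lamb3 and Lama3 also without DES B (0.313 and 0.162).

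The stromal contrast itself differed between treatments for Lama4 and Lamc1. Lama4 was at 51.9 and 114 CPM in stromal and 69.9 and 186 in other spots of CO sections, and at 70.9 and 57.7 in stromal and 32.1 and 26.5 in other spots of DES sections (difference of log2 fold changes 1.87, SE 0.31, adjusted p = 1.84e-04). Lamc1 was at 64.5 and 60.7 against 57.5 and 74.8 in CO and at 61.1 and 52.0 against 29.1 and 27.0 in DES (difference 1.25, SE 0.33, adjusted p = 0.0247). These 2 of 9 members were higher, where 2.58% of genes were, and 0 were lower, where 0.783% were. The p-values of the differences are likely too small as well, because the spots were clustered on the counts tested. The stromal levels overlapped between treatments, and the other spots, which hold the muscle, were lower in DES. Smooth muscle markers in the stromal cluster were at 654 and 572 CPM in CO and 1325 and 4945 in DES, where 4 and 50 stromal spots of DES A and DES B were also among the muscle-rich spots, and the part of muscle was not tested. The Lama4 call held without any 1 of the sections (adjusted p at most 0.00760), and the Lamc1 call ended without CO B (0.328) or DES A (0.165) and with DESeq2 (0.320).

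Epithelium-rich and muscle-rich spots differed in most chains, as they did in a large share of all genes. In CO sections Lamb3 (log2 4.65, SE 0.33, adjusted p = 2.20e-07) and Lama3 (log2 3.70, SE 0.32, adjusted p = 1.05e-06) were higher in epithelium-rich spots, and Lama4 (log2 -5.48, SE 0.29, adjusted p = 2.29e-08), Lamc1 (-2.76), Lama1 (-2.66, adjusted p = 0.0271), Lamb2 (-2.47) and Lamb1 (-1.42) were lower. These were 2 and 5 of 9 members, where 25.6% and 25.1% of 12168 genes were. In DES sections Lama3 (log2 3.11), Lamb3 (2.70) and Lama1 (1.99, adjusted p = 0.0205) were higher and Lama4 (-4.33), Lamc1 (-2.51), Lamb2 (-2.15) and Lamb1 (-1.29) lower, 3 and 4 of 9, where 19.5% and 18.8% of genes were. Lama5 had log2 fold changes of -0.06 and 0.16 in CO and DES and Lama2 of -0.82 and -1.33, none past the threshold.

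Lama1 had opposite signs in the treatments, from few counts: its CO counts were 2 and 1 UMIs in epithelium-rich and 7 and 2 in muscle-rich spots, and its DES counts 64 and 44 against 2 and 5. The difference of the contrasts was 4.65 (SE 1.10, adjusted p = 0.0359), the 1 member of 9 that was higher, where 2.52% of genes were. For Lamb3 the difference was -1.95 (SE 0.50, adjusted p = 0.0499), the 1 member lower, where 1.76% were, with 2.98 and 3.06 CPM in muscle-rich spots of CO and 13.3 and 17.8 in those of DES sections. Those levels rest on 5 and 5 UMIs in CO and 9 and 15 in DES. In epithelium-rich spots Lamb3 was not lower in DES, at 127 and 112 CPM against 82.8 and 90.8. Basal markers in muscle-rich spots were at 1.79 and 6.12 CPM in CO and 1082 and 1001 in DES, and their part was not tested. The Lama1 call ended without CO A (adjusted p = 0.186) or DES A (0.15), and the Lamb3 call without DES A (0.0542) or DES B (0.341). DESeq2 gave Lama1 no adjusted p and did not call Lamb3 (adjusted p = 0.174), and with 10% of spots neither was called. Within treatments the Lama1 call ended without CO A in CO (adjusted p = 0.352) and without DES A in DES sections (0.373), and both ended with DESeq2 and with 25% of spots.

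**Figure D5:**
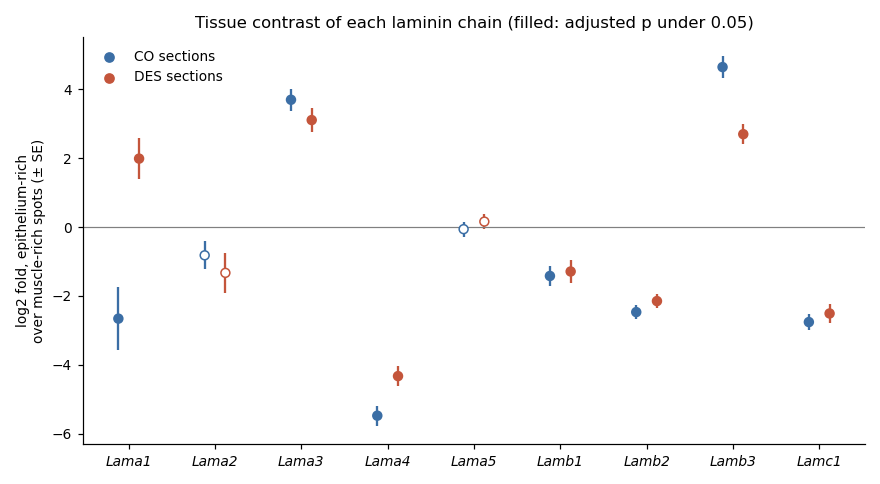
Log2 fold change of each laminin chain of epithelium-rich over muscle-rich spots, in CO and in DES sections, from edgeR. Bars are standard errors worked out from the F statistic of the test. Filled points have an adjusted p under 0.05. Lamb3 and Lama3 lie on the epithelial side in both treatments, Lama4 on the muscle side, and Lama1 changes side, from -2.66 in CO to 1.99 in DES.

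Other basement membrane genes of the sections were read from the same fits. Over whole sections, where 2.63% of all genes were lower and 2.67% higher, 13 were tested: Col4a1 (log2 -2.74, adjusted p = 0.0212), Col4a2 (-2.42, adjusted p = 0.0212) and Col15a1 (-1.42, adjusted p = 0.0262) were lower in DES and Agrn (1.16, adjusted p = 0.0381) higher. Col4a1 and Col4a2, the chains of the main collagen of basement membranes, were also lower in epithelium-rich (-2.57 and -1.93), stromal (-2.01 and -1.83) and muscle-rich spots (-2.02 and -1.58), and Col18a1 in epithelium-rich (-1.21) and stromal spots (-1.84). Of the 11 laminin receptors, Bcam (1.98) and Itgb4 (1.62) were higher over whole sections and Itga7 (-1.33), an integrin of muscle, lower. Bcam (2.12) and Itga3 (1.13) were higher in epithelium-rich spots, Bcam (1.59) in stromal spots and Itgb4 (1.83) in muscle-rich spots. Of 6 hemidesmosome genes, Itgb4 and Plec (1.2) were higher over whole sections, Col17a1 (5.21) and Plec (1.42) in epithelium-rich spots, and Col17a1 (4.96) in stromal spots. Over all genes 3.59% were higher and 1.97% lower in epithelium-rich, 0.796% and 0.673% in stromal and 1.02% and 0.607% in muscle-rich spots. Of the calls named here, that of Col4a1 in muscle-rich spots held without any 1 of the sections (adjusted p at most 0.0365), and that of Col17a1 in stromal spots ended without DES A (0.266). All others ended both without DES A and without DES B.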

How the data were processed

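RNA of 12-month-old mouse uteri was measured by single-cell (1 CO and 1 DES library) and spatial (2 CO and 2 DES sections) 10x Genomics assays. The authors deposited raw UMI counts per gene and cell or spot, with tables of cell types and clusters. The submitters' processing notes name bcl2fastq 2.20.0.422, Cell Ranger 3.0.1, Space Ranger 1.2.2 and build mm10. Per the study's methods the authors removed doublets with scran before annotation, and no further caller was run. The metadata name 350 cells without counts. Counts were summed per group of cells or per region of a section and divided by the summed total (CPM). Single-cell ratios have no test: genes above 5 CPM were called at 2 times, with exact Poisson or conditional binomial 95% intervals. Shares of cells used cells thinned to 3000 UMIs, a depth that all 483 basal cells reached. The 4608 other DES epithelial cells are those of the deposited epithelial clusters: 4 of them also met the basal rule and are in both groups, and 168 epithelial cells are in neither. Section sums were tested with edgeR 4.0.16 (quasi-likelihood, TMM, filterByExpr, R 4.3.3) and Benjamini-Hochberg adjustment over all genes tested, and contrasts within sections had section as a block and 8 sums. SE is the size of the log2 fold change divided by the square root of the edgeR F statistic. The tests were tried on simulated data. The alternatives were the Wald test of DESeq2 1.42.0, edgeR scaled by DESeq2 size factors, no count filter, other choices of spots or cells, and each section left out. Depth per sample and counting error limit low chains such as Lama1. The members and gene lists were chosen with earlier results of these data known. All 9 members were named, as were list genes past a threshold, at most 5 a list by size, and the 3 genes of most similar pattern, of which 1 for Lamb1 is not reported here.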

Additional observations from a re-analysis of the deposited data

Results flagged for a closer look

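These results were singled out because the same contrast differed between CO and DES sections, with the difference itself tested by edgeR. The contrast of stromal with other spots differed for Lama4 by 1.87 on the log2 scale (adjusted p = 1.84e-04) and for Lamc1 by 1.25 (adjusted p = 0.0247), higher in DES for both. Both p-values are likely too small, because the spots were clustered on the counts tested. The Lamc1 call ended without CO B (adjusted p = 0.328) or DES A (0.165) and with DESeq2 (0.320). Smooth muscle markers in stromal spots were at 654 and 572 CPM in CO and at 1325 and 4945 in DES, and their part in this was not tested. The contrast of epithelium-rich with muscle-rich spots differed for Lama1 by 4.65 (adjusted p = 0.0359) and for Lamb3 by -1.95 (adjusted p = 0.0499). Lamb3 counts in muscle-rich spots were few, 5 and 5 UMIs in CO and 9 and 15 in DES. Basal markers there were at 1.79 and 6.12 CPM in CO and 1082 and 1001 in DES, and their part was not tested. DESeq2 gave Lama1 no adjusted p and did not call Lamb3 (adjusted p = 0.174), and with 10% of spots neither was called. The call of Lama1 ended without CO A or DES A and that of Lamb3 without DES A or DES B.

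Lama1 was also counted in cells without an annotated cell type, which entered no comparison. In the 6611 such DES cells it was at 0.709 CPM, from 30 UMIs in 24 cells (exact Poisson 95% interval 0.478 to 1.01), and in the 20134 such CO cells at 0.206 CPM, from 35 UMIs (0.144 to 0.287).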

How the results depend on the processing

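No paired analysis was possible, because the sections came from different mice and no label ties a CO section to a DES section. Counts of members past the threshold in the comparisons of DES with CO ranged, when 1 section was left out, from 0 to 7 over whole sections (5 with all sections), from 0 to 2 in stromal spots (0), from 0 to 3 in epithelium-rich spots (2) and from 0 to 5 in muscle-rich spots (1). They ranged from 2 to 6 for stromal against other spots in CO (6), from 4 to 6 in DES (7), from 1 to 2 for the difference of the stromal contrasts (2), from 7 to 8 and from 6 to 8 for epithelium-rich against muscle-rich spots in CO and DES (7 each), and from 0 to 3 for the difference of the epithelial contrasts (2). With no filter on low counts 3 members were called in stromal and 5 in muscle-rich spots, and with 25% of spots per region 3 in muscle-rich spots. With DESeq2 the counts were 3 and 4 for stromal against other spots in CO and DES, 1 for the difference of the stromal contrasts and 0 for that of the epithelial contrasts, where Lama1 got no adjusted p. The latter was also 0 with 10% and 1 with 25% of spots. The cause of these changes was not tested. In a fit with a section left out, its treatment keeps a lone section, so calls gained or lost there have no replicate in that treatment.

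No log2 fold change that turned sign had passed the threshold with all sections. For Lama5, stromal spots DES against CO gave -0.0026 without the count filter and -0.31 with stromal spots chosen by marker score, where Lamb2 went to -0.32. With the same choice Lamb2 in stromal against other DES spots went to -0.04. With 10% of spots Lama4 in epithelium-rich spots went to 0.66, and with 25% Lamb2 in muscle-rich spots to -0.07. In the difference of the stromal contrasts Lama3 went to -0.01 with 25% of spots, Lama5 to -0.05 with 10%, and Lamb3 to -0.17 and -0.14 with 10% and 25%. Lama5 in epithelium-rich against muscle-rich CO spots went to 0.02 without the count filter.

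Leaving out 1 section, signs turned within these ranges of log2 fold change: over whole sections Lamb2 -0.82 to 0.32; in stromal spots Lama4 -0.90 to 0.28, Lama5 -0.15 to 0.15 and Lamb2 -0.38 to 1.15; in epithelium-rich spots Lama4 -0.62 to 0.27 and Lamb2 -0.21 to 1.10; in muscle-rich spots Lama2 -2.29 to 0.04 and Lamb2 -0.40 to 0.74. For stromal against other spots they were Lamc1 -0.35 to 0.01 in CO and Lama1 -2.66 to 0.02 in DES, and for the difference of these contrasts Lamb3 -0.19 to 0.51. For epithelium-rich against muscle-rich spots they were Lama2 -1.76 to 0.45 and Lama5 -0.38 to 0.30 in CO and Lama5 -0.02 to 0.36 in DES. For the difference of those contrasts they were Lama2 -1.83 to 0.44, Lama3 -1.09 to 0.12, Lama5 -0.19 to 0.55, Lamb1 -0.66 to 0.88 and Lamc1 -0.15 to 0.62.

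Over all genes, whole sections gave 747 calls, 1791 with DESeq2 and 3 to 2819 without 1 section. Stromal spots gave 131, 714 without the filter, 63 by marker score and 40 to 357 without 1 section. Epithelium-rich spots gave 641, 1059 with DESeq2, 356 without the filter and 80 to 656 without 1 section. Muscle-rich spots gave 158, 716 without the filter, 100 and 441 with 10% and 25% of spots and 105 to 1280 without 1 section. Stromal against other spots gave 1621 in CO and 1736 in DES, 685 and 879 with DESeq2, and 670 to 2082 and 905 to 1868 without 1 section, and their difference 456 and 207 with DESeq2. Epithelium-rich against muscle-rich DES spots gave 4656, 51.0% of them higher, 2975 with DESeq2, 40.0% higher, and 2846 to 5859 without 1 section. The difference of the epithelial contrasts gave 521, 266 with DESeq2, 1064 without the filter, 321 and 848 with 10% and 25% of spots and 396 to 1389 without 1 section.

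All 26 alternative counts of members past 2 times in single cells equalled or stayed within 1.5 times the reported counts. Judged by a fixed cut-off on the log2 scale and not by counting error, 106 single-cell log2 ratios stayed the same and 11 moved. Of the shares of cells with a UMI, which rise with depth, 45 moved and 9 did not when cells were thinned to a greater depth or not at all.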

Other observations

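Lamb3 was not limited to epithelium in the single-cell libraries. Lymphocytes had 26.2 CPM in CO (59 UMIs in 48 of 423 cells, exact Poisson 95% interval up to 33.9) and 22.2 CPM in DES (33 UMIs in 27 of 239 cells, 15.3 to 31.1), which was 124% and 133% of the level in epithelial cells of the same library that were not basal. RNA of epithelial cells that is free in the suspension gives counts in every cell type, and in lymphocytes Epcam, Cdh1, Krt18 and Krt8 stood at 13.7%, 19.0%, 20.5% and 21.6% of their epithelial levels in CO and at 9.41%, 14.6%, 13.5% and 12.9% in DES, and Lama3 at 12.8% and 18.8%. In myeloid cells Lamb3 was at 0 CPM in CO and 0.490 in DES.

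Within CO lymphocytes Lamb3 was at 72.9 CPM in the 89 cells with a UMI of Nkg7, a gene of cytotoxic cells (49.8 to 103), and at 14.9 in the 334 cells without (9.84 to 21.7). Lama3 was at 6.83 and 3.87 CPM in these cells. In DES lymphocytes the Lamb3 levels were 46.4 in 37 cells with Nkg7 (21.2 to 88.1) and 18.5 in 202 cells without (11.9 to 27.6), with overlapping intervals. Lamb3 was not highest in cells with Nkg7 throughout: the 17 DES cells with Cd79a and no Cd3e or Cd3g, a B cell pattern, had 94.7 CPM (9 UMIs, 43.3 to 179.8), against 21.7 in the 81 such CO cells, and the cells with Cd3e or Cd3g had 59.0 in CO and 36.6 in DES. Lymphocytes with a UMI of none of these genes had 3.55 CPM in CO (183 cells) and 9.92 in DES (142 cells). Each treatment had 1 library, so these levels were not tested, and the splits by these genes were chosen after the levels of Lamb3 in lymphocytes had been seen.

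Lama1 in the DES sections stood at 26.0 and 19.0 CPM, while in the single-cell library it was at 2.33 CPM in DES basal cells, and at 3.87 in the 263 of them that lay in integrated epithelial cluster 8, and at 7.53 in the 88 cells of that cluster that failed the basal rule. The assays differ in chemistry and in the cells they hold, and these levels were not compared by a test.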
